A study of Mus musculus with 16 samples.

Results

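The 10 genes described here belong to the pathway by which cells sense and answer a shortage of amino acids. They are Eif2ak4, which encodes the sensor kinase GCN2, the transcription factors Atf4 and Cebpb, the stress gene Nupr1, and 6 genes of amino acid and folate metabolism: Asns, Gpt2, Psat1, Phgdh, Pycr1 and Aldh1l2. They were taken by gene name from a table of 47069 genes, and all 10 were among the 16646 genes with enough reads to be tested. RNA was sequenced from the hypothalamus, the brain region that governs feeding and energy balance, of mice of the inbred strain C57BL/6N. The 8 diets combined each of 2 fat contents, 60% or 20% of dietary energy, with each of 4 protein contents, 1%, 2.5%, 5% or 20% of energy. Each diet had 2 libraries, so every protein level had 4 libraries and every fat level had 8. The comparison addresses dietary protein content at each fixed fat content. Both are shares of energy, so the remaining share of energy changes as protein changes. Effects of protein and of that remainder cannot be told apart, and the same holds for fat at a fixed protein content. Sex, age and time on the diet are not given in the sources used here. Whether the libraries sharing a diet represent different animals is not stated, so the p-values reflect the variation among these samples alone, and that variation may be technical.

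When an amino acid runs short, its tRNA stays uncharged, and GCN2 binds uncharged tRNA and phosphorylates the initiation factor eIF2. General translation then slows while translation of the Atf4 mRNA increases, because upstream reading frames in that mRNA hold the main frame back under normal conditions. ATF4 pairs with C/EBP and other bZIP proteins and binds composite elements in genes for amino acid synthesis, amino acid transport and tRNA charging. In the brain, serine is made largely in astrocytes, through the enzymes that Phgdh and Psat1 encode. The libraries measure mRNA, not GCN2 activity, eIF2 phosphorylation or ATF4 protein.

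The composite element that ATF4 and C/EBP proteins share is written TGATGNAA, and it was searched on both strands of the 300 bases around each start of transcription (250 bases before to 50 after) in RefSeq promoters of build GRCm38.p6. Promoters were found for 9 of the 10 genes, 11 promoters in all, with Aldh1l2 not matched. The motif occurred in 3 of the 11, those of Asns, Pycr1 and Nupr1, and in 1304 of all 32851 promoters (3.97%) or 352 of the 15117 promoters of tested genes (2.33%). The 250 bases before each of these 3 starts are shown because the RNA of all 3 genes differed between 1% and 20% protein, with Nupr1 lower and the others higher. Capitals mark the motif. It begins at base -23 from the start in Asns and at base -103 in Pycr1, both on the gene's strand, and covers a stretch from base -110 in Nupr1, where it lies on the opposite strand. The sequences run 5′ to 3′ along the gene's strand, which is the minus strand in each case: Asns at chr6:7693210-7693459, Pycr1 at chr11:120643749-120643998 and Nupr1 at chr7:126625471-126625720.
Asns: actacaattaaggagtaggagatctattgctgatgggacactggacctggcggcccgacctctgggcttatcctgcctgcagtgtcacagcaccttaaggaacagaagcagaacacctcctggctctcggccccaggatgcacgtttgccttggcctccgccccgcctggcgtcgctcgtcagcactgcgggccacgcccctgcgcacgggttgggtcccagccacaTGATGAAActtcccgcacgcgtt
Pycr1: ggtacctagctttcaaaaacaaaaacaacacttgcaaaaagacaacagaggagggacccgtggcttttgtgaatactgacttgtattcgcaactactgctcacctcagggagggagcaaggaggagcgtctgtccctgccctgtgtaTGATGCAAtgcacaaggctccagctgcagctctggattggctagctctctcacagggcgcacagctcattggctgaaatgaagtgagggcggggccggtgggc
Nupr1: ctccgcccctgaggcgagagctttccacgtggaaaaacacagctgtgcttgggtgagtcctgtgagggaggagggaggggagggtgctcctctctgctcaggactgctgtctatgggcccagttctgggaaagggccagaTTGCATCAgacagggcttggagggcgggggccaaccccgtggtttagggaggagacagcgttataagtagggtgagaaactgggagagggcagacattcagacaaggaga
A match describes these letters, not a bound site. No match was found in the windows of Eif2ak4, Atf4, Cebpb, Gpt2, Psat1 and Phgdh. The RefSeq starts of Nupr1 and Psat1 lie well inside the longer spans that GENCODE M21 gives these genes. Both Psat1 windows end by base 15925309 of chromosome 19, while its minus-strand span reaches base 15947337.

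The library totals ran from 17731242 to 18511818 counts. A low share of mitochondrial reads, 1.54%, 1.61% and 1.78%, marked 3 of the 4 libraries at 1% protein: replicates 1 and 2 of 60% fat and replicate 1 of 20% fat. The remaining 13 had shares of 2.19% to 3.20%, with the highest in replicate 2 on 1% protein and 20% fat. The same 3 libraries had the lowest correlations (Spearman, across genes, which are not independent) between gene length and log2 CPM relative to the gene's mean, -0.26, -0.17 and -0.26, against -0.14 to 0.32 in the others, and the lowest TMM factors, 0.964, 0.961 and 0.982, against 0.996 to 1.02. Replicate 2 on 1% protein and 20% fat and replicate 2 on 2.5% protein and 20% fat also stood apart in cortical markers: Slc17a7, a glutamate transporter gene of cortical neurons, had 5074 and 10337 counts there, against 1267 to 2513 elsewhere. The 10 markers of hypothalamic neurons summed to between 707 and 1037 CPM (counts scaled to a common library size, TMM-adjusted), and none was at 0 in any library. By edgeR (adjusted p under 0.05), 2 were higher with 1% than with 20% protein (Npy, log2 2.17, and Agrp, 0.59). A further 3 were lower (Pomc, -1.91, Sim1, -0.67, and Avp, -0.58), and 5 did not pass. The 2 libraries that stood apart in cortical markers also had the highest sums of 5 choroid plexus markers, 249 and 213 CPM. Replicate 1 on 1% protein and 60% fat had 134 CPM, and the median of the 16 libraries was 46.2 CPM.

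Most of the 10 genes differed between the lowest and the highest protein level. With 1% protein, 7 genes were higher than with 20% protein (Cebpb, Gpt2, Pycr1, Psat1, Phgdh, Asns and Atf4), 2 were lower (Nupr1 and Aldh1l2), and Eif2ak4 did not pass the quasi-likelihood test of edgeR (Benjamini-Hochberg adjusted p under 0.05). Over all 16646 genes tested, 14.3% passed this comparison, 8.26% higher and 6.01% lower. The median log2 fold change was 0.26 over the 10 genes and 0.0035 over all genes tested. Fewer cells of a type and less RNA per cell cannot be told apart in such bulk tissue. The 9 passing genes did not move alike in the 4 libraries at 1% protein: both libraries at 60% fat lay beyond every library at 20% protein for all 9 genes, replicate 1 at 20% fat for 8 (all but Atf4), and replicate 2 at 20% fat for 5 (Cebpb, Gpt2, Psat1, Pycr1 and Aldh1l2). Without the 3 libraries with a low mitochondrial share, which leaves replicate 2 at 20% fat alone at 1% protein and assumes that it varies like the other groups, 1 of the 10 genes passed, Gpt2. With a trend on gene length removed from each library, 8 passed. The share of all genes that passed in that setting is not given here, so this count cannot be set against it. Leaving out 1 library at a time, between 5 and 9 genes passed, while the count over all genes ran between 939, without replicate 1 on 1% protein and 20% fat, and 5616, without replicate 2 of that diet, against 2376 with all libraries. The count was 5 without either library on 1% protein and 60% fat, without replicate 1 on 1% protein and 20% fat, without replicate 1 on 20% protein and 60% fat or without replicate 2 on 20% protein and 20% fat.

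**Figure D1:**
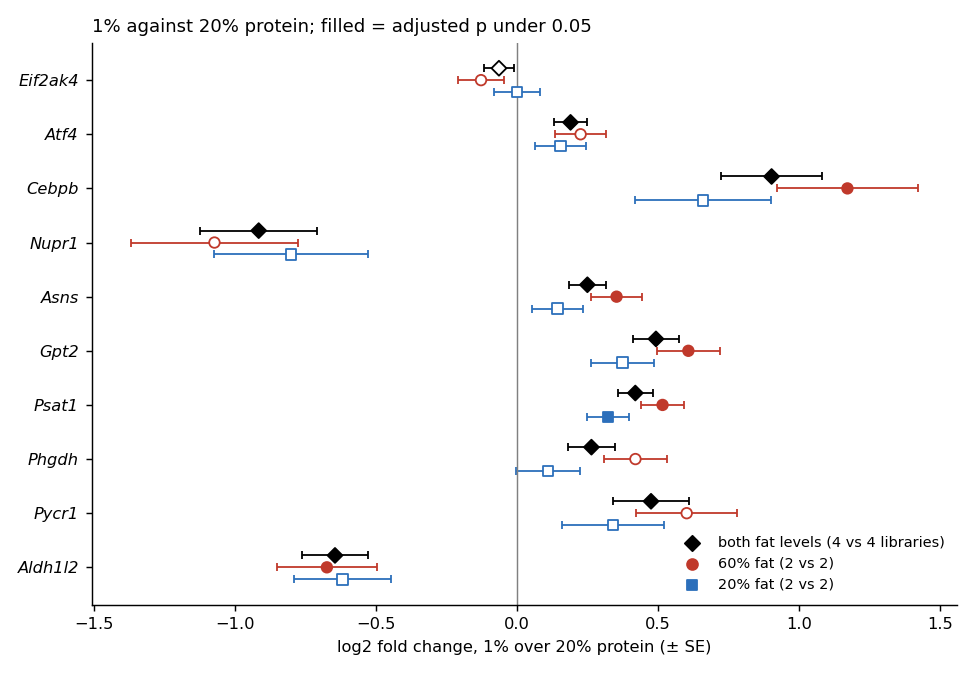
Log2 fold change of each of the 10 genes with 1% over 20% protein (horizontal axis, error bars are 1 SE), over both fat levels (diamonds, 4 against 4 libraries), at 60% fat (circles) and at 20% fat (squares, 2 against 2 libraries each). Filled symbols passed at an adjusted p under 0.05. Nupr1 (-0.92) and Aldh1l2 (-0.64) lie to the left of 0 and Cebpb (0.90) farthest to the right.

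Eif2ak4 spans 118388618 to 118475234 on the plus strand of chromosome 2 in build GRCm38. It had 43.3, 45.0, 45.9 and 47.6 CPM with 1% protein (replicates 1 and 2 at 60% fat, then at 20% fat, an order kept below), against 51.4, 45.0, 46.8 and 46.8 CPM with 20% protein. The 2 sets of libraries overlapped. Its log2 fold change was -0.063 ± 0.055 (SE, adjusted p = 0.44), and its mean was 47.3 ± 0.814 CPM at 2.5% protein and 46.9 ± 2.17 CPM at 5% protein (SD, n = 4 each). The sensor's mRNA was the steadiest of the 10, with a standard deviation of 0.060 in log2 CPM over the 16 libraries.

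Atf4, a compact gene on chromosome 15 (80255184 to 80257541, plus strand), showed a small difference. It had 121, 132, 115 and 115 CPM with 1% protein, against 99.5, 117, 106 and 101 CPM with 20% protein. A single library, replicate 2 on 20% protein and 60% fat, reached above 2 of the libraries at 1% protein. The mean was 121 ± 8.00 CPM with 1% protein and 106 ± 7.81 CPM with 20% protein (SD, n = 4 each), a 1.14-fold difference (log2 0.19 ± 0.060, SE, adjusted p = 0.0439). The call was lost when any of 13 of the 16 libraries was left out, with an adjusted p of up to 0.167. It was kept only without replicate 2 on 20% protein and 60% fat, replicate 2 on 1% protein and 20% fat or replicate 2 on 5% protein and 20% fat. With the gene length trend removed, Atf4 had a log2 fold change of 0.096 (adjusted p = 0.29).

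Cebpb encodes C/EBP-beta, a bZIP factor that pairs with ATF4, and it had the largest rise of the 10. It had 4.67, 4.73, 4.70 and 3.96 CPM with 1% protein, against 2.04, 2.12, 2.22 and 3.25 CPM with 20% protein. The 4 libraries at 1% protein lay above all 12 other libraries, as they did for Psat1 and for 1.77% of all genes tested. The means were 4.51 ± 0.370 CPM with 1% protein and 2.41 ± 0.568 CPM with 20% protein (SD, n = 4 each), a 1.87-fold difference (log2 0.90 ± 0.18, SE, adjusted p = 0.0046). The gene is lightly covered, with 38 to 85 counts per library. It lies on chromosome 2 (167688915 to 167690418, plus strand) inside the span of the coding gene Tmem189 on the opposite strand. How strand was treated in the counting is not stated in those sources, so reads of these genes cannot be told apart.

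**Figure D2:**
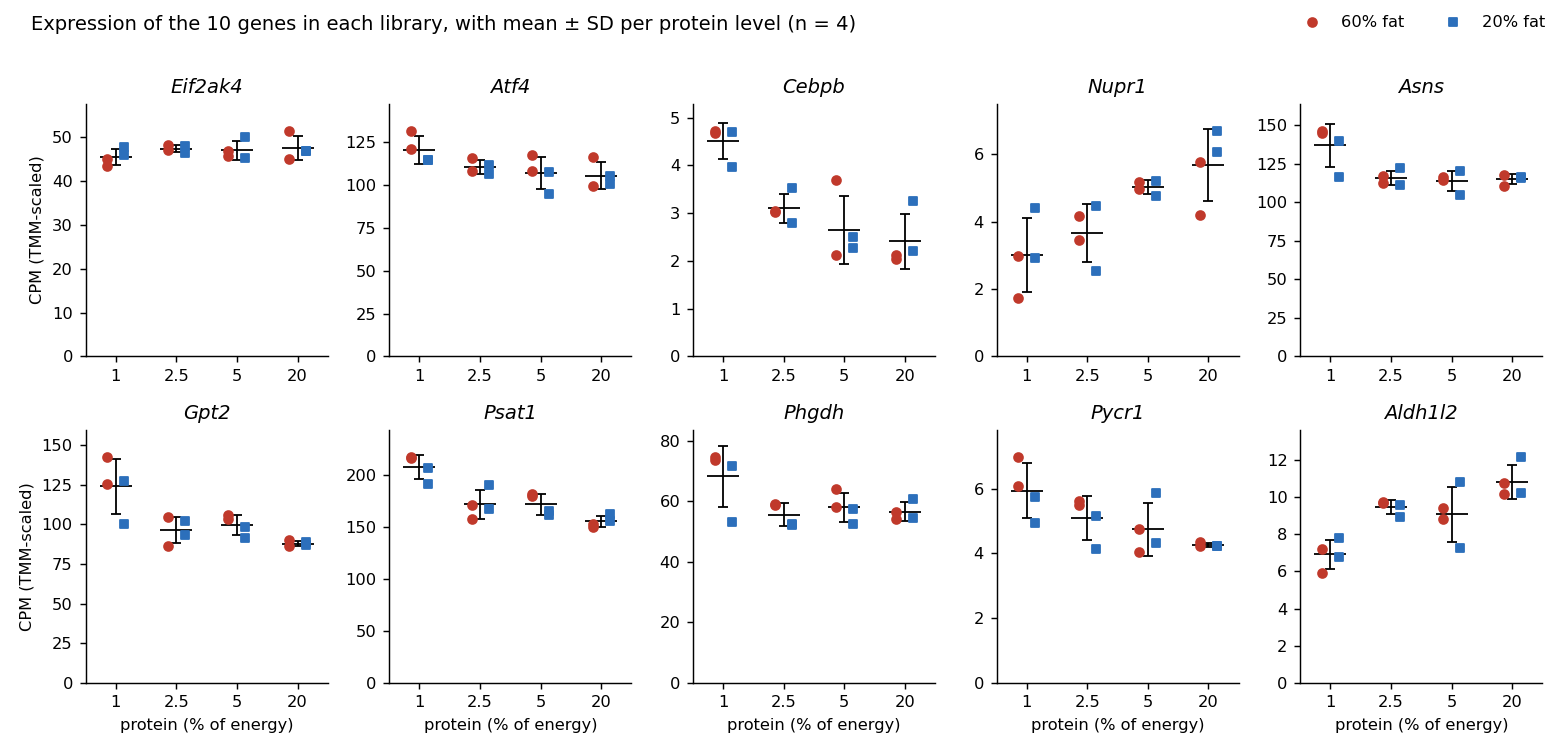
CPM of the 10 genes in each of the 16 libraries (points; circles 60% fat, squares 20% fat) against protein as a percent of energy, with the mean and SD of 4 libraries per protein level. Cebpb and Psat1 at 1% protein lie above every other library, Eif2ak4 stays near 47 CPM, and the means of Nupr1 and Aldh1l2 are lowest at 1% protein.

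Both serine synthesis genes were higher with 1% protein. Psat1 encodes phosphoserine aminotransferase, the second enzyme of the route, and lies on chromosome 19 (15904678 to 15947337, minus strand), where the processed pseudogene Gm3329 overlaps it on the opposite strand. It had 217, 216, 206 and 192 CPM with 1% protein, against 153, 150.2, 162 and 156 CPM with 20% protein. Every library at 1% protein stood above every library at the other levels. The means were 208 ± 11.9 CPM with 1% protein and 155 ± 5.24 CPM with 20% protein (SD, n = 4 each), a 1.34-fold difference (log2 0.42 ± 0.062, SE, adjusted p = 0.00060), and the call was kept without any single library.

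Phgdh encodes phosphoglycerate dehydrogenase, the first enzyme of the route (chromosome 3, 98313170 to 98339990, minus strand). It had 73.6, 74.6, 71.5 and 53.1 CPM with 1% protein, against 56.6, 54.1, 60.9 and 54.6 CPM with 20% protein. The first 3 libraries at 1% protein lay together, and replicate 2 at 20% fat lay below all 4 libraries at 20% protein. The means were 68.2 ± 10.1 CPM with 1% protein and 56.5 ± 3.09 CPM with 20% protein (SD, n = 4 each), a 1.201-fold difference (log2 0.26 ± 0.083, SE, adjusted p = 0.0426). Leaving out any of 14 libraries ended the call (adjusted p up to 0.181). It was kept without replicate 2 on 1% protein and 20% fat or replicate 1 on 20% protein and 20% fat. Without the 3 libraries with a low mitochondrial share the log2 fold change of Phgdh was -0.057. Astrocyte markers summed to 2057 to 2274 CPM with 1% protein, against 2135 to 2373 CPM with 20% protein, but single markers moved apart: of the 6 tested, Aqp4, a water channel gene, was lower with 1% protein (log2 -0.86, edgeR adjusted p = 0.00069), and Aldh1l1 (0.35) and Slc1a3 (0.16) were higher. The seventh, Gfap, was listed at 0 in every library. The part of astrocytes in the values of Phgdh and Psat1 was not tested.

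The enzymes of asparagine, alanine and proline synthesis were higher with 1% protein as well. Gpt2, on chromosome 8 (85492576 to 85527560, plus strand), encodes the mitochondrial alanine transaminase, which forms alanine from pyruvate and glutamate. It had 126, 142, 100.3 and 127 CPM with 1% protein, against 86.0, 89.8, 87.0 and 88.5 CPM with 20% protein. The groups did not overlap, and the spread at 1% protein was far wider. The means were 124 ± 17.4 CPM with 1% protein and 87.8 ± 1.67 CPM with 20% protein (SD, n = 4 each), a 1.41-fold difference (log2 0.49 ± 0.081, SE, adjusted p = 0.0013). Gpt2 passed under each of the 25 alternatives run for this comparison, one of which leaves a single library at 1% protein.

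Asns encodes asparagine synthetase, a classical target of ATF4 (chromosome 6, 7675169 to 7693254, minus strand), and its promoter carries the motif printed above. It had 147, 145, 139.7 and 117 CPM with 1% protein, against 111, 118, 117 and 116 CPM with 20% protein. Replicate 2 on 1% protein and 20% fat lay within the libraries at 20% protein. The means were 137 ± 13.8 CPM with 1% protein and 115 ± 3.07 CPM with 20% protein (SD, n = 4 each), a 1.19-fold difference (log2 0.25 ± 0.065, SE, adjusted p = 0.0195). Its call was lost without either library on 1% protein and 60% fat, either library on 20% protein and 60% fat, replicate 1 on 1% protein and 20% fat or replicate 2 on 20% protein and 20% fat (adjusted p up to 0.0798).

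Pycr1, which also carries the motif, encodes a mitochondrial pyrroline-5-carboxylate reductase, the last enzyme of proline synthesis (chromosome 11, 120635712 to 120643769, minus strand). It had 6.08, 6.98, 5.75 and 4.94 CPM with 1% protein, against 4.35, 4.24, 4.22 and 4.21 CPM with 20% protein. The libraries at 20% protein were nearly equal, and all 4 at 1% protein lay above them. The means were 5.94 ± 0.844 CPM with 1% protein and 4.26 ± 0.0665 CPM with 20% protein (SD, n = 4 each), a 1.39-fold difference (log2 0.48 ± 0.13, SE, adjusted p = 0.0290) at 74 to 124 counts per library. The same 6 libraries that decided the call of Asns decided that of Pycr1 when left out (adjusted p up to 0.109). In all, 4 of the 10 genes (Cebpb, Gpt2, Psat1 and Pycr1) had every library at 1% protein above every library at 20% protein, against 7.4% of all genes tested, and 1, Aldh1l2, had every library below, against 6.35%.

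Nupr1 and Aldh1l2, both known as genes that ATF4 induces, were lower with 1% protein. Nupr1 encodes a small nuclear protein induced by stress (chromosome 7, 126623249 to 126630861, minus strand). It had 2.98, 1.74, 2.93 and 4.40 CPM with 1% protein, against 4.19, 5.76, 6.70 and 6.08 CPM with 20% protein. Replicate 2 on 1% protein and 20% fat reached just above the lowest library at 20% protein. The means were 3.01 ± 1.08 CPM with 1% protein and 5.69 ± 1.07 CPM with 20% protein (SD, n = 4 each), 1.89-fold lower with 1% protein (log2 -0.92 ± 0.21, SE, adjusted p = 0.0106), at 31 to 124 counts per library.

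Aldh1l2 encodes a mitochondrial enzyme that oxidises 10-formyltetrahydrofolate and yields NADPH (chromosome 10, 83487450 to 83534140, minus strand). Its span overlaps the coding gene D10Wsu102e on the opposite strand. It had 5.91, 7.20, 7.80 and 6.78 CPM with 1% protein, against 10.8, 10.2, 10.2 and 12.2 CPM with 20% protein. The groups did not overlap. The means were 6.92 ± 0.793 CPM with 1% protein and 10.8 ± 0.931 CPM with 20% protein (SD, n = 4 each), 1.56-fold lower with 1% protein (log2 -0.64 ± 0.12, SE, adjusted p = 0.0024). Both genes kept their calls without any single library.

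Most markers of mural and fibroblast-like cells, which line vessels and the meninges, were also lower with 1% than with 20% protein. The 8 markers summed to 189.7, 139.5, 158 and 218 CPM with 1% protein, and to between 244 and 287 CPM with 20% protein. They lay between 157 and 244 CPM with 2.5% protein and between 237 and 262 CPM with 5% protein. The sums at 1% and 2.5% protein overlapped. Nupr1 had 1.74 to 4.40 CPM with 1% protein and 2.53 to 4.46 CPM with 2.5% protein. Aldh1l2 had 5.91 to 7.80 CPM with 1% protein and 8.92 to 9.72 CPM with 2.5% protein. Of the 8 markers, 6 were lower with 1% than with 20% protein (Col1a1, -1.17 on the log2 scale; Lum, -1.23; Dcn, -0.85; Col1a2, -0.74; Slc6a13, -0.64; Rgs5, -0.64), and Igf2 (-0.65, adjusted p = 0.0559) and Pdgfrb (-0.042) did not pass. None was at 0 in any library. Of the 6 endothelial markers, 5 passed, 4 lower and Vwf higher, and they summed to 158 to 185 CPM with 1% protein, against 183 to 214 CPM with 20% protein. The part of these cells in the values of Nupr1 and Aldh1l2 was not tested.

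**Figure D3:**
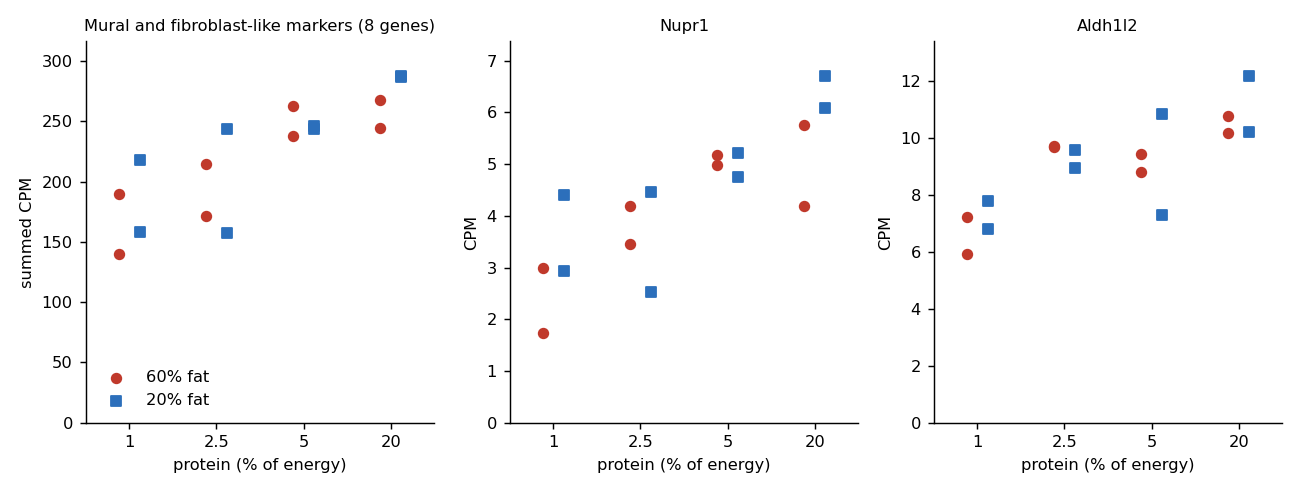
Summed CPM of 8 markers of mural and fibroblast-like cells (left), and CPM of Nupr1 (middle) and Aldh1l2 (right), in each library against protein as a percent of energy; circles are 60% fat and squares 20% fat. The marker sum is 140 to 218 CPM with 1% protein and 244 to 287 CPM with 20% protein, and the means of both genes are lowest at 1% protein.

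None of the 10 genes passed between an intermediate protein level and 20% protein. With 2.5% against 20% protein, none of the 10 genes passed edgeR's test, DESeq2 called none, and 2 had an unadjusted p under 0.05 (Nupr1, log2 -0.63 ± 0.20, and Psat1, log2 0.14 ± 0.062, SE). Over all genes tested, 0.00601% passed this comparison and 4.81% had such an unadjusted p. With 5% against 20% protein, again none passed by edgeR or DESeq2, and 3 had an unadjusted p under 0.05: Gpt2 (log2 0.18 ± 0.081), Psat1 (0.15 ± 0.062) and Aldh1l2 (-0.25 ± 0.11), against 3.01% of all genes, of which 0.03% passed. A p that misses the threshold does not show that these levels are equal.

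The mean levels differed in shape. For Asns and Phgdh the 3 upper protein levels lay close together: Asns averaged 116 ± 4.85, 114 ± 6.57 and 115 ± 3.07 CPM at 2.5%, 5% and 20% protein, and Phgdh 55.6 ± 3.91, 58.0 ± 4.71 and 56.5 ± 3.09 CPM (SD, n = 4 each). For Cebpb, Pycr1 and Nupr1 the means over both fat levels together were graded, though not within each fat level. Cebpb averaged 4.51, 3.10, 2.65 and 2.41 CPM at 1%, 2.5%, 5% and 20% protein, Pycr1 5.94, 5.10, 4.74 and 4.26 CPM, and Nupr1 3.01, 3.66, 5.03 and 5.69 CPM. Atf4 averaged 121, 110.5, 107 and 106 CPM, and Eif2ak4 lay between 45.5 and 47.5 CPM at every level. Psat1 averaged 208, 172, 172 and 155 CPM, Gpt2 124, 96.5, 99.7 and 87.8 CPM, and Aldh1l2 6.92, 9.48, 9.08 and 10.8 CPM, with the 2 middle levels within their spread of each other. At 20% fat alone (n = 2 each) Cebpb averaged 4.33, 3.17, 2.38 and 2.74 CPM, and Pycr1 5.34, 4.65, 5.09 and 4.22 CPM. Nupr1 averaged 3.66, 3.49, 4.98 and 6.39 CPM there. At 60% fat Cebpb and Pycr1 kept the order, while Nupr1 averaged 5.07 CPM at 5% and 4.98 CPM at 20% protein.

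Between 1% and 2.5% protein, Psat1 (log2 0.28 ± 0.062, SE, adjusted p = 0.0279) and Gpt2 (0.36 ± 0.081, adjusted p = 0.0289) were higher with 1% protein by edgeR's test. Over all genes tested, 2.32% passed, and 1.39% of all genes tested passed as higher. A further 4 genes had an unadjusted p under 0.05, against 22.1% of all genes, and did not pass after adjustment: Aldh1l2 (-0.45 ± 0.12, adjusted p = 0.0513), Asns (0.24 ± 0.065, adjusted p = 0.0583), Phgdh (0.29 ± 0.083, adjusted p = 0.0692) and Cebpb (0.54 ± 0.17, adjusted p = 0.0935). Neither Psat1 nor Gpt2 passed when either library on 1% protein and 60% fat, either on 2.5% protein and 60% fat, or replicate 2 on 2.5% protein and 20% fat was left out. The count over all genes ran between 95 and 4265 when 1 library was left out, against 386 with all libraries. Of the genes described here, 1 passed without replicate 1 on 1% protein and 20% fat, and 6 passed without replicate 2 of that diet. Neither gene passed without the 3 libraries with a low mitochondrial share.

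The study's own model fits a straight line in protein percent, with fat and their interaction where the interaction passes. Along that line no gene of the 10 passed by edgeR, where 0.018% of all genes did, and 6 had an unadjusted p under 0.05, against 14.6% of all genes. Scaled as the log2 change at 1% relative to 20% protein, these were Psat1 (0.30 ± 0.078, SE), Gpt2 (0.34 ± 0.10), Nupr1 (-0.70 ± 0.21), Aldh1l2 (-0.43 ± 0.13), Cebpb (0.67 ± 0.22) and Pycr1 (0.38 ± 0.13). DESeq2 called Psat1 along the same line. On a log2 scale of protein, which spaces the 4 levels more evenly, 6 of the 10 passed edgeR's test, 4 higher and 2 lower, among 1311 genes in all.

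**Figure D4:**
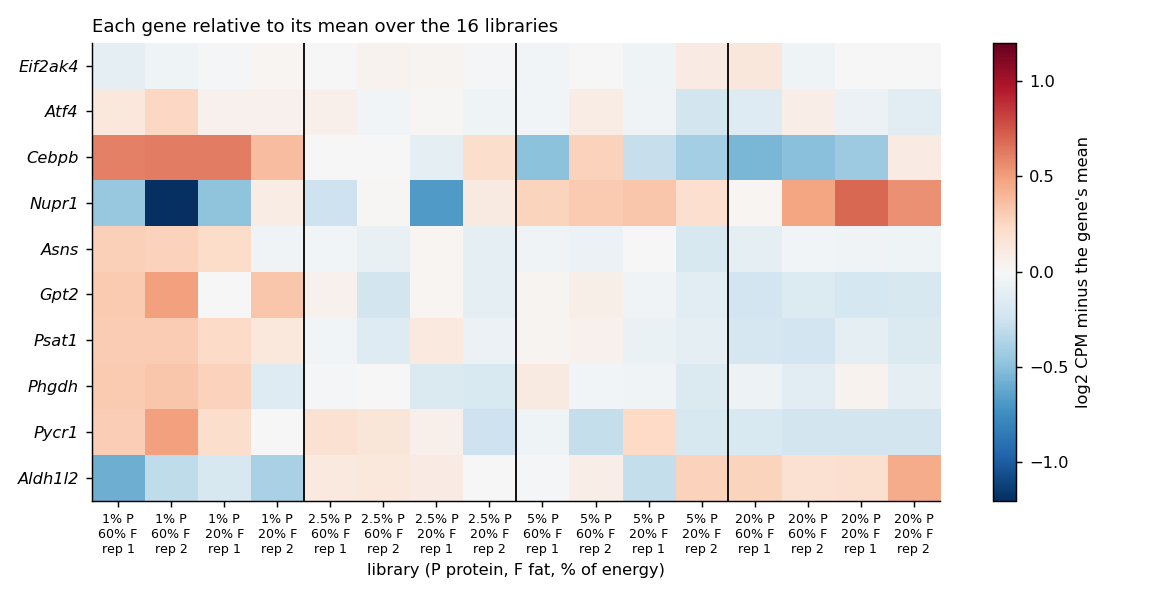
Log2 CPM of the 10 genes in each library relative to the gene's mean over the 16 libraries (colour scale in log2 units; red above and blue below the mean), with libraries in columns by protein level (P) and fat level (F). The first 4 columns, at 1% protein, stand apart for Cebpb and Psat1, while the fourth column (replicate 2 at 20% fat) is near or below the mean for Asns and Phgdh.

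Within 60% fat, 5 of the 10 genes differed between 1% and 20% protein (2 against 2 libraries, spread estimated from all 8 diets), where 4.25% of all genes did. Cebpb (log2 1.17 ± 0.25, SE), Gpt2 (0.61 ± 0.11), Psat1 (0.52 ± 0.075) and Asns (0.35 ± 0.090) were higher and Aldh1l2 (-0.67 ± 0.18) was lower by edgeR's test (adjusted p of 0.0041 to 0.0493). Counting unadjusted p under 0.05, 9 genes passed, all but Eif2ak4, against 28.2% of all genes. Within 20% fat, Psat1 alone passed (0.32 ± 0.075, adjusted p = 0.0441), where 1.78% of all genes did, and 5 genes had an unadjusted p under 0.05 (also Gpt2, 0.38; Cebpb, 0.66; Nupr1, -0.80; Aldh1l2, -0.62), against 15.4% of all genes.

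The differences at 60% fat and at 20% fat were not shown to be unequal. The test of that difference called none of the 10 genes by edgeR or DESeq2, none had an unadjusted p under 0.05, and the values ran from -0.27 to 0.51 on the log2 scale, with a lowest adjusted p of 0.632. Over all genes, 0% passed this test and 7.84% had an unadjusted p under 0.05. The counts within a fat level rested on few libraries. Over all genes, leaving out 1 library gave between 16 and 2748 calls at 60% fat and between 53 and 805 at 20% fat. The counts that follow are of the 10 genes. At 60% fat the count was 0 without replicate 2 of 1% protein or either library of 20% protein at that fat level, 2 without replicate 1 of 1% protein, 3 when any 1 library of 60% fat at 2.5% or 5% protein, or of 20% fat at 20% protein, was left out, and 8 when any 1 of 20% fat at 1% or 5% protein was. At 20% fat no gene passed when any library of 60% fat or either library on 20% protein and 20% fat was left out. Without either library on 5% protein and 20% fat, the 1 gene that passed was a lower one, so not Psat1. The call of Psat1 at 20% fat was lost when any of 13 of the 16 libraries was left out. Replicate 2 on 1% protein and 20% fat, which stood apart in cortical markers, is 1 of the 2 libraries of the 1% group at that fat level.

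Fat itself was not shown to change these genes. With 60% against 20% fat over all protein levels (8 against 8 libraries), none of the 10 passed edgeR's test, DESeq2 called none, and 2 had an unadjusted p under 0.05: Atf4 (log2 0.099 ± 0.042, SE) and Phgdh (0.13 ± 0.058), both with an adjusted p of 0.628. Over all genes, 0.00601% passed and 7.79% had an unadjusted p under 0.05. Atf4 averaged 115 ± 9.69 CPM at 60% fat and 107 ± 6.93 CPM at 20% fat, and Phgdh 62.3 ± 7.76 CPM at 60% fat and 56.8 ± 6.69 CPM at 20% fat (SD, n = 8 each). The fold changes of the 10 genes ran from -0.20 to 0.13 on the log2 scale.

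Other genes around GCN2 and ATF4 were counted in 6 lists for 1% against 20% protein. Among the 20 cytosolic aminoacyl-tRNA synthetases, which load amino acids onto tRNAs, 10 rose and none fell, where 8.26% of all genes rose and 6.01% fell, with a list median of log2 0.14 against 0.0035 over all genes. Kars, for lysine, averaged 119 ± 14.5 CPM with 1% protein and 94.8 ± 5.62 CPM with 20% protein (log2 0.33), and Aars, for alanine, 330.4 ± 40.3 CPM with 1% protein and 272 ± 12.7 CPM with 20% protein (log2 0.28). Yars, Gars and Sars, for tyrosine, glycine and serine, rose by log2 0.25, 0.23 and 0.22. In replicate 2 on 1% protein and 20% fat, Kars had 97.5 CPM, within the range of 88.3 to 102 CPM at 20% protein. Over all genes, leaving out 1 library gave between 939 and 5616 calls, against 2376 with all libraries. The count of synthetases was 1 without either library on 1% protein and 60% fat. It was also 1 without replicate 1 on 1% protein and 20% fat, where 939 of all genes passed. It was 3 without replicate 1 on 20% protein and 60% fat or replicate 2 on 20% protein and 20% fat. It was 4 without replicate 2 on 20% protein and 60% fat. Without replicate 2 on 1% protein and 20% fat, where 5616 of 17003 genes tested passed, it was 14. It was 0 without the 3 libraries with a low mitochondrial share.

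Of 13 serine, glycine and folate enzymes tested, 2 rose and none fell (median log2 0.11), where 8.26% of all genes rose and 6.01% fell. They were Aldh1l1 (log2 0.35), the cytosolic counterpart of Aldh1l2 and an astrocyte gene, and Mthfd1l (0.32), which releases formate in mitochondria. The count was 1 to 4 when each library was left out, where 939 to 5616 of all genes passed, against 2376 with all libraries. It was 4 without replicate 2 on 1% protein and 20% fat, where 5616 of 17003 genes tested passed. Psph, the third enzyme of serine synthesis (0.18), Shmt2 (0.084) and Mthfd2 (0.089), mitochondrial folate enzymes that ATF4 is known to induce, did not pass. Among 16 enzymes of proline, asparagine, alanine, glutamate and cysteine metabolism, 4 rose and 1 fell (median 0.11), and 3 to 8 passed when each library was left out. There were 8 without replicate 2 on 1% protein and 20% fat, against the same 5616 of 17003 genes. There were 3 without replicate 2 on 1% protein and 60% fat. There were also 3 without replicate 1 on 1% protein and 20% fat, where 939 of all genes passed. Glul, glutamine synthetase (0.37), Cbs, which makes cystathionine (0.35), Got2, mitochondrial aspartate aminotransferase (0.22), and Prodh, which breaks down proline (0.40), rose, and Aspg, an asparaginase, fell by 0.78. Prodh and Aspg are catabolic. The cytosolic alanine transaminase gene Gpt (-0.00395) did not pass.

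Among 10 bZIP genes whose proteins can pair with ATF4, 1 rose and none fell (median 0.060), close to the 8.26% of all genes that rose. Without replicate 2 on 1% protein and 20% fat, 4 passed, 3 higher and 1 lower, where 5616 of 17003 genes tested passed. Without replicate 1 on 20% protein and 20% fat 2 passed. Cebpd, a relative of Cebpb, had 10.5, 12.9, 12.2 and 15.6 CPM with 1% protein, against 6.29, 4.19, 5.62 and 5.39 CPM with 20% protein (log2 1.25 ± 0.15, SE, adjusted p = 0.00015). Its libraries at 1% protein lay above all others. Ddit3, which encodes CHOP (0.12), and Atf3 (-0.44) did not pass. Among 14 genes of eIF2 kinases, their partners and eIF2 dephosphorylation, 1 rose, Ppp1r15a (0.28), whose product GADD34 helps remove the phosphate from eIF2, and none fell (median 0.13), again close to the share of all genes. Leaving out 1 library gave between 939 and 5616 calls over all genes, against 2376 with all libraries. None of these 14 genes passed when any 1 of 14 of the 16 libraries was left out. Without replicate 2 on 1% protein and 20% fat 7 passed, 6 higher and 1 lower, against the same 5616 of 17003 genes. The other eIF2 kinase genes had values of 0.048 (Eif2ak1), 0.19 (Eif2ak2) and 0.0083 (Eif2ak3) and did not pass.

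The stress and transport targets of ATF4 were split. Of 16 tested, 2 rose and 3 fell (median 0.14), where 8.26% of all genes rose and 6.01% fell. Over all genes, leaving out 1 library gave between 939 and 5616 calls, against 2376 with all libraries. The count of these targets was 3 without any 1 of the 3 libraries with a low mitochondrial share. It was also 3 without replicate 1 on 20% protein and 60% fat or replicate 2 on 20% protein and 20% fat. Without replicate 2 on 1% protein and 20% fat, where 5616 of 17003 genes tested passed, it was 10. Ddit4, an inhibitor of mTORC1 that glucocorticoids and energy stress also induce, had 94.3, 112, 107 and 108 CPM with 1% protein, against 50.2, 45.7, 51.2 and 49.3 CPM with 20% protein (log2 1.104 ± 0.080, SE, adjusted p = 1.4e-06). Slc7a11, the cystine transporter, had 22.7, 23.0, 16.03 and 30.1 CPM with 1% protein, against 41.3, 45.2, 41.0 and 42.9 CPM with 20% protein (log2 -0.89 ± 0.15, SE, adjusted p = 0.0018). These 2 genes moved in opposite directions with no overlap between 1% and 20% protein. Herpud1 (0.26) rose, and Vegfa (-0.31) and Vldlr (-0.27) fell. Trib3 (0.24), Chac1 (0.23) and Sesn2 (0.28, adjusted p = 0.0504) did not pass.

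Of the genes named from the 6 lists, Cebpd, Ddit4, Kars, Slc7a11, Vegfa, Aspg, Glul, Prodh and Aldh1l1 kept their calls without any single library. Aars, Gars, Yars, Sars, Ppp1r15a, Herpud1, Vldlr, Cbs, Got2 and Mthfd1l lost theirs without at least 1 library. Cebpd and Ddit4 passed under all 25 alternatives. One of these removes the 3 libraries with a low mitochondrial share and leaves a single library at 1% protein, which is assumed to vary like the other groups. Under it, Cebpd and Ddit4 were the 2 genes of the 6 lists that passed.

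**Figure D5:**
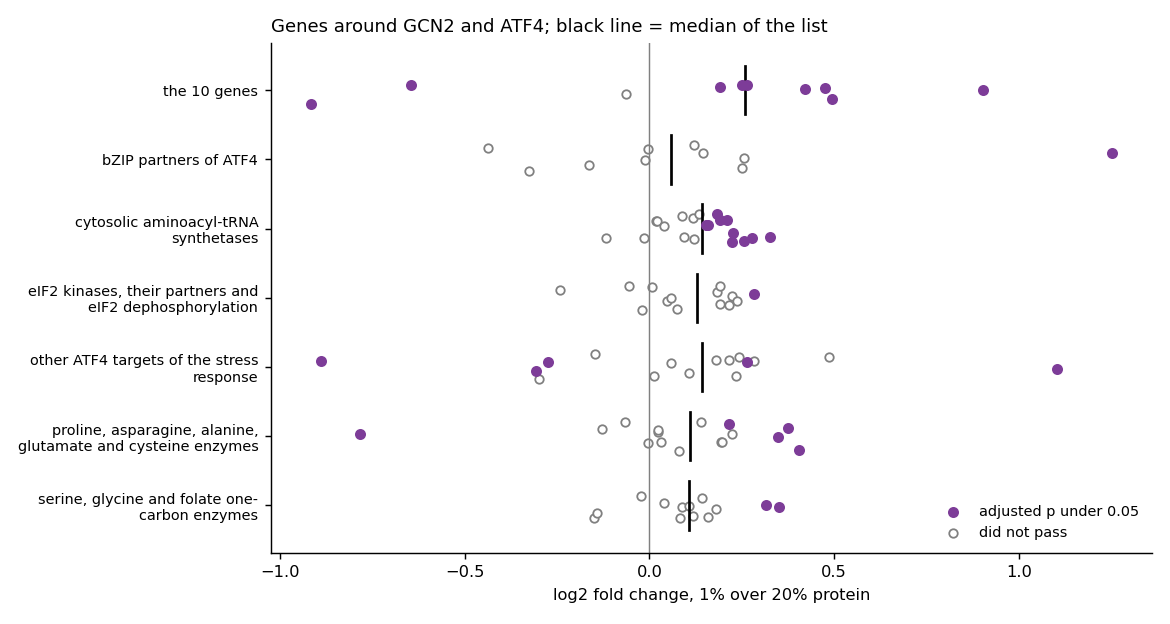
Log2 fold change with 1% over 20% protein (horizontal axis) of the 10 genes and of the genes in 6 lists around GCN2 and ATF4; each point is a gene, filled where the adjusted p was under 0.05, and the black line is the list's median. List medians run from 0.060 to 0.14, and among the genes of the lists Cebpd (1.25), Ddit4 (1.104), Slc7a11 (-0.89) and Aspg (-0.78) lie farthest from 0.

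The genes most like each of the 10 were ranked by the root mean square difference of log2 CPM, each gene centred on its own mean, over the 16 libraries, among 13242 genes averaging 1 CPM or more. For Psat1 they were Retsat (0.052), Ogdhl (0.061) and Bcl2l1 (0.065), and for Gpt2 they were Retsat (0.078), B3galt5 (0.079) and Adipor2 (0.084). Asns lay closest to Fto (0.033), Ddx24 (0.036) and Rab11fip5 (0.037). Cebpb lay closest to Cyp4f15, Klf15 and Nfkbia (0.22 each). Nupr1 lay closest to Slc6a12 (0.20), Slc6a20a (0.20) and Islr (0.21), and Aldh1l2 to Catsperg1, Pde1c and Pou2f2 (0.14 each). Retsat headed the ranking for both Psat1 and Gpt2, the pair of genes that passed between 1% and 2.5% protein. No other gene appeared among the 3 nearest of more than 1 of the 10.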

How the data were processed

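The authors deposited raw gene counts, unnormalised, for 47069 genes in 16 libraries of mouse hypothalamus (Trizol RNA, per the labels' protocols). Per the submitters' processing notes, the build was GRCm38 and the software comprised edgeR, featureCounts, Subread 5.0, FastQC, SAMtools 1.2 and HISAT2 2.1.0. For 9 of the 10 genes the deposited gene length equals the whole annotated span (GENCODE M21), so counts can include intronic reads and levels are not compared between genes.

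Genes were kept with filterByExpr (minimum count 10; 16646 left), scaled with TMM and tested with edgeR's quasi-likelihood F test (edgeR 4.0.16, limma 3.58.1, R 4.3.3), Benjamini-Hochberg adjusted over all genes at 0.05, on all 16 libraries. Protein as 4 levels plus fat gave the contrasts between levels. A straight line in protein, with fat and an interaction dropped where its p was above 0.05, gave the slope, as in the series' design text. The 8 diets as separate groups gave the contrasts within a fat level and their difference. Log2 CPM used a prior count of 2. The steps were tested on simulated counts.

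The 10 genes and all lists were chosen with earlier results of these data known. Named were all 10 genes for 1% against 20% protein, those with an unadjusted p under 0.05 elsewhere, up to 5 risers and 5 fallers per list, and the 3 genes nearest in pattern; list members that did not pass were named after their values were seen. Over all genes, differences between replicates 1 and 2 correlated between diets at -0.170 to 0.339 (28 pairs of diets, median 0.020). The replicate number was used only in an alternative. A shared shift is not excluded for single genes. At 20% fat, replicate 2 lay below replicate 1 in every diet for Atf4, Asns, Psat1, Phgdh and Pycr1. The other genes of the 10 did not keep 1 direction there. Alternatives (27) covered scaling, DESeq2 1.42.0, count filters, a replicate block, protein on a log2 scale, fewer libraries and leaving out each library. Libraries of a diet differed by more than counting noise, so none was treated as a duplicate.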

Additional observations from a re-analysis of the deposited data

Results flagged for a closer look

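In 78 groups of 4 libraries at 1 protein level, 6 held a library far from the other 3, where chance gives about 1 in 20. All 6 were replicate 2 at 20% fat, 4 at 1% protein and 2 at 20% protein. At 1% protein, where this library stood apart in cortical markers and had the highest mitochondrial share, it was lowest for Cebpb (3.96 CPM, against 4.67 to 4.73 CPM in the others), for Phgdh (53.1 CPM, against 71.5 to 74.6 CPM) and for Kars (97.5 CPM, against 123 to 129 CPM), and highest for Vegfa (89.0 CPM, against 79.6 to 80.0 CPM). At 20% protein, replicate 2 at 20% fat was highest for Cebpb (3.25 CPM, against 2.04 to 2.22 CPM) and lowest for Ppp1r15a (10.8 CPM, against 12.04 to 12.2 CPM). For Cebpb both libraries lay toward the other protein level. The part of the library's RNA makeup in these values was not tested.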

How the results depend on the processing

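Counts below are genes of the 10 called. For 1% against 20% protein (9 as reported) the count was 5 on the libraries of those levels alone and 1 without the 3 libraries with a low mitochondrial share, and ran from 5 to 9 when each library was left out. For 1% against 2.5% protein (2) it was 5 with DESeq2, 5 with the replicate block, 6 without both libraries with cortex markers and 0 on the 2 levels alone or without the low mitochondrial libraries, and ran from 0 to 6. Within 60% fat (5) it was 8 with no count filter, with the replicate block or without the cortex libraries, and ran from 0 to 8. Within 20% fat (1) it was 4 with no count filter and 2 without the cortex libraries, and ran from 0 to 1. Along the slope (0) it was 1 with DESeq2 and 6 on a log2 protein scale. For 2.5% and 5% against 20% protein, fat and the difference between fat levels it was 0 throughout. With the replicate block, the count for 1% against 20% protein stayed at 9. Signs turned for Phgdh (-0.057) in 1% against 20% protein, and for Asns (-0.0029) and Phgdh (-0.033) in 1% against 2.5% protein, without the low mitochondrial libraries, and for Eif2ak4 (0.0075) with the length trend removed. These last 2 settings were added after seeing the data. Over all genes, 1% against 20% protein gave 2376 calls, 806 on its 2 levels alone, 5889 without the cortex libraries and 403 without the low mitochondrial ones; 1% against 2.5% gave 386, with 809, 53, 4026 and 132 under DESeq2 and those 3 settings; and within 60% fat 707 became 1513 with DESeq2, 2131 unfiltered, 1858 with the block and 2865 without the cortex libraries. When each library was left out, 1% against 2.5% protein gave between 95 and 4265 calls over all genes. The causes were not tested. Cebpb, Nupr1, Pycr1 and Aldh1l2 had under 230 counts in any library, which limits their precision.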

Other observations

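Of the 89 tested genes in the 6 lists around GCN2 and ATF4, 14 passed edgeR's test with 1% against 20% protein at 60% fat (10 higher and 4 lower), where 4.25% of all genes passed, and 3 passed at 20% fat (2 higher and 1 lower), where 1.78% of all genes passed. In edgeR's test of the difference between the fat levels none of the 89 passed, and 4 had an unadjusted p under 0.05, so the counts at 60% and 20% fat are not shown to differ. Both libraries on 1% protein and 60% fat had a low mitochondrial share, whose part in these values was not tested. The genes named here were chosen after their values were seen. Both subunits of the cystine and glutamate exchanger passed at 60% fat, in opposite directions: Slc7a11, the transporting chain, had a log2 fold change of -0.92 (edgeR adjusted p = 0.0364), and Slc3a2, the heavy chain that it shares with other amino acid transporters, had 0.31 (edgeR adjusted p = 0.0460). Eif2b5, the catalytic subunit of the exchange factor that phosphorylated eIF2 inhibits, was higher at 60% fat (log2 0.36, edgeR adjusted p = 0.0493). The 3 genes that passed at 20% fat were Cebpd (log2 1.34), Ddit4 (1.0995) and Aspg (-0.91), and these 3 also passed at 60% fat (1.16, 1.11 and -0.63). Between 1% and 2.5% protein 5 of the 89 genes passed, all higher, where 2.32% of all genes passed and 1.39% were higher: Cebpd (log2 0.83), Ddit4 (0.79), Aldh1l1 (0.36), Cbs (0.35) and Prodh (0.30).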
